A study of Mus musculus with 15 samples.

Results

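The clustered protocadherins are a family of cadherin-like adhesion genes that stand side by side in 3 clusters. They were taken from the deposited tables as every gene symbol that starts with Pcdha, Pcdhb or Pcdhg and goes on with an isoform number or a C-type or subfamily letter. This gave 58 of the 25080 genes listed. The alpha cluster held 14, the beta cluster 22 and the gamma cluster 22, the last made of 12 A-type, 7 B-type and 3 C-type genes. Pcdhac1 and Pcdhac2 are the C-type genes of the alpha cluster, which makes 5 C-type genes in all.

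Clustered protocadherins are transmembrane proteins, most of which bind the same isoform on a facing membrane. In the alpha and gamma clusters every gene has its own first exon, which carries the extracellular part and its own promoter, and is spliced to constant exons shared by the whole cluster, while beta genes are single-exon genes. Most isoforms are known to be switched on in a random-looking combination in each neuron through CTCF and cohesin, so that a neuron recognises its own branches, whereas C-type isoforms are known to be expressed more uniformly, with Pcdhgc4 linked to neuronal survival and Pcdhac2 to serotonergic axons.

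RNA was sequenced from microdissected thalamus of male mice on a C57Bl6J background, aged 2 to 4 months. Maged1-cKO mice carried floxed Maged1 and Cre driven by Vglut2, the vesicular glutamate transporter gene, so that recombination was aimed at glutamatergic neurons while the tissue was not sorted. Controls, named WT in the sample titles, were floxed littermates without Cre in the study's methods. Mice received cocaine at 20 mg/kg or saline by intraperitoneal injection for 5 days, after a saline habituation that all groups shared. The libraries numbered 4 for control saline, 4 for control cocaine, 4 for cKO saline and 2 for cKO cocaine. Another cKO cocaine sample, replicate 3 by its title, was not analysed here. Values are TPM, a share of transcripts corrected for transcript length, which keep no record of sequencing depth, and were scaled between libraries here by the trimmed mean of M values (TMM). The study's methods give a nominal read depth for all libraries alike, but with no count per library no counting interval is given.

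The labels of these libraries are in doubt. For 4 saline libraries the genotype given as a characteristic went against the title: control saline 3 and 4 were tagged as cKO, and cKO saline 1 and 2 as control. The study's methods name more cocaine than saline samples among those not sorted, while the titles hold more saline than cocaine samples. Groups follow the titles. Maged1 was at 153, 167, 150 and 151 scaled TPM in control saline, and at 77.4, 76.6, 68.2 and 64.6 in cKO saline, as the titles have it. In the libraries labelled control cocaine it was at 58.5, 87.7, 77.3 and 70.7, and in those labelled cKO cocaine at 154 and 174. Maged1 thus went against the labels in all 6 cocaine libraries, so these are called "labelled control" and "labelled cKO" throughout, and a comparison that sets a cocaine group against a saline group of the same label may set animals of different genotype against each other. A further comparison was therefore added after the data had been seen. It takes the mean of both cocaine groups minus the mean of both saline groups, and stays the same if the genotype labels are exchanged between whole groups of one treatment. It does not guard against an exchange of treatment labels.

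Markers of the dissected region were present in every library. Slc17a6, which encodes Vglut2, lay between 69.3 and 104 scaled TPM, and Tcf7l2, a thalamic transcription factor, between 73.9 and 124. Markers of neighbouring tissue varied. Control saline 1 stood apart in 5 choroid plexus markers, with a sum of 1445 scaled TPM where the other 13 libraries had 3.00 to 55.3. The summed level of 4 habenular markers ran from 4.12 to 125 over the 14 libraries, and that of 3 GABAergic neuron markers from 12.5 to 157. For 7 ependymal markers the sum ran from 28.6 to 31.3 in control saline and from 4.40 to 29.9 in labelled control cocaine. It ran from 4.63 to 19.6 in cKO saline and was 35.1 and 25.7 in labelled cKO cocaine. Ependymal sums in cKO saline thus lay below those of control saline and of labelled cKO cocaine without overlap. The summed level of 8 hypothalamic markers ran from 134 to 467 in control saline, from 3.06 to 129 in labelled control cocaine and from 11.0 to 148 in cKO saline, and was 35.2 and 75.4 in labelled cKO cocaine. The summed level of 5 oligodendrocyte markers ran from 1177 to 1423, from 1298 to 1986 and from 1454 to 2055 in the same 3 groups, and was 1534 and 1560 in labelled cKO cocaine. None of the hypothalamic or oligodendrocyte markers was at 0 in all libraries. The part of these tissues in the results below was not tested. In bulk tissue, fewer cells of a type cannot be told apart from less RNA per cell.

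The clusters lie on chromosome 18 of the GRCm38 assembly, between 36930285 and 37841873, a span of 911589 bp. The alpha cluster took up 36930285 to 37188897, the beta cluster 37264998 to 37521419 and the gamma cluster 37661775 to 37841873. Of the members, 57 are annotated as protein coding and Pcdhgb8 as a transcribed pseudogene. The sharing of exons bears on how far a value belongs to 1 gene. A median of 53.5% of an alpha transcript was exon sequence shared with other alpha members, with a range of 48.6% to 54.9% over 13 members with an annotated transcript. The corresponding median was 44.9% in the gamma cluster, where Pcdhgc5 had the lowest share at 7.10%. All these shares are for the longest annotated transcript, which has 3 exons for Pcdhgc5 where the gamma median is 4. Other transcripts were not examined, so the level of Pcdhgc5 cannot be taken as free of shared reads. In the beta cluster only Pcdhb21 and Pcdhb22 overlapped, by up to 9.67%. Reads from shared exons are divided among isoforms by estimation, so the levels of single alpha and gamma genes are uncertain in a way that those of beta genes are not. The clusters also differed in base composition. Gamma transcripts held 51.0% to 55.4% G and C, and beta transcripts 39.1% to 49.0%.

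C-type genes stood highest in thalamus. As means over the 14 libraries, Pcdhgc3 had 25.1 scaled TPM, Pcdhgc4 9.93, Pcdhac2 9.36 and Pcdhgc5 7.29, ahead of Pcdhgb6 at 5.14 and Pcdhb17 at 4.53. TPM is a level per transcript length, so these levels can be set beside each other. The median member level was 1.42 in the alpha, 1.98 in the beta and 3.65 in the gamma cluster, with 3.71 for gamma A, 2.62 for gamma B and 9.93 for gamma C. The fifth C-type gene, Pcdhac1, was low in comparison, between 1.49 and 2.02 over the libraries. Behind Pcdhac2, the highest alpha genes were Pcdha12 at 3.09, Pcdha9 at 2.30 and Pcdha5 at 1.86. The highest beta genes after Pcdhb17 were Pcdhb9 at 3.36, Pcdhb22 at 2.95 and Pcdhb20 at 2.87.

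**Figure D1:**
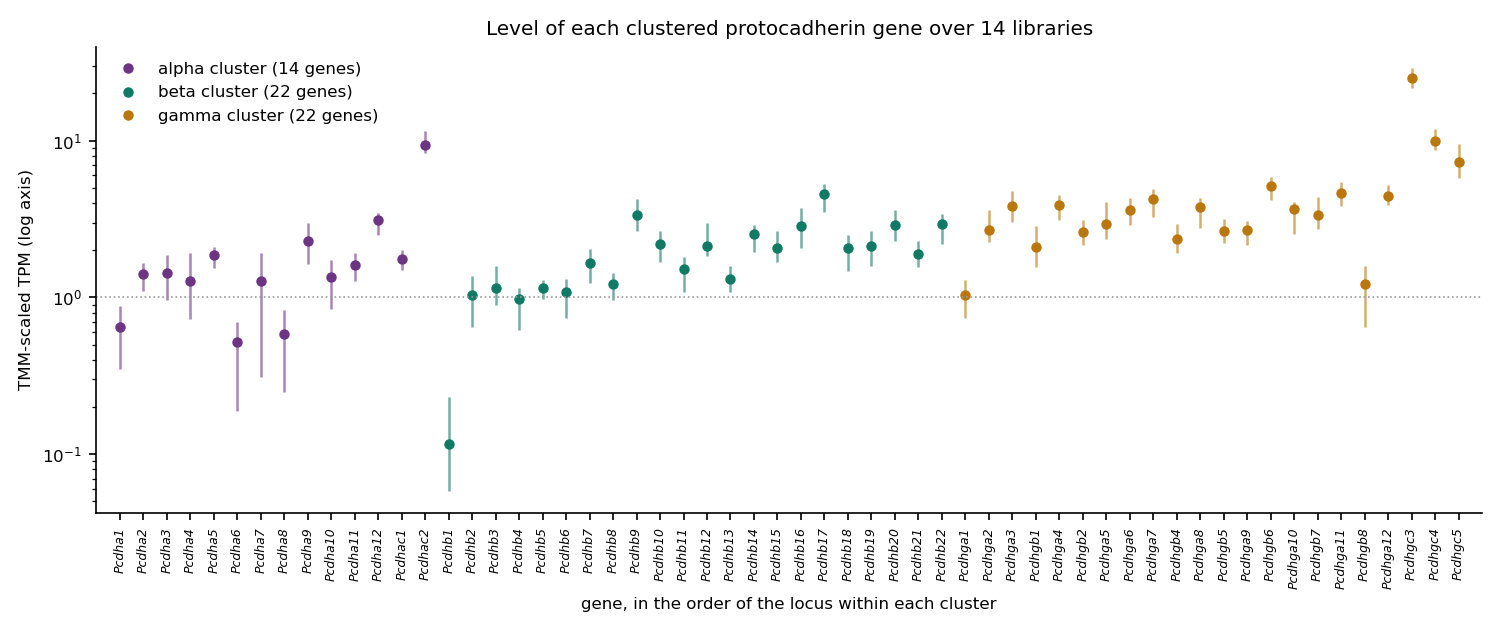
Level of each clustered protocadherin in scaled TPM (log axis), by gene in the order of the locus within the alpha, beta and gamma clusters, with a point for the mean and a line from the lowest to the highest of the 14 libraries. Pcdhgc3, at a mean of 25.1, stands above all other members, and Pcdhb1, at 0.116, is the lowest.

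Of the 58 genes, 34 had a mean of at least 2 scaled TPM and 5 a mean below 1. The order of the levels was much alike in the 4 groups, with Spearman coefficients from 0.961 to 0.991 between group means over 58 genes. These are descriptions, since the groups share gene lengths and exon sharing. A gene was tested if it reached 1 TPM as deposited in at least 3 libraries, and 54 members passed: 11 alpha, 21 beta and all 22 gamma genes. Pcdha1, Pcdha6, Pcdha8 and Pcdhb1 did not, with means of 0.644, 0.522, 0.581 and 0.116. At the border, Pcdhb4 passed with a mean of 0.977 and 7 libraries at 1 TPM, and Pcdha1 failed with none.

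The first comparison set labelled control cocaine against control saline, groups that also differed in Maged1. Among the 54 members tested, 5 gamma genes rose, the C-type genes Pcdhgc3, Pcdhgc4 and Pcdhgc5 and the A-type genes Pcdhga3 and Pcdhga12, and Pcdha9 and Pcdhb19 fell, at an adjusted p under 0.05 in limma. No member reached the threshold for a call, an adjusted p under 0.05 in limma with a log2 fold change of at least 0.5, which 3.08% of the 13471 genes tested did. Over all genes tested, 14.2% were higher and 10.2% lower at an adjusted p under 0.05 with no minimum fold, beside the 5 and 2 members. Members that are named only for passing this second threshold were chosen after their values were seen. An unadjusted p under 0.05 was reached by 11 members. Fold changes are on the log2(value + 0.5) scale, which understates the change of low genes.

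Pcdhgc4, the C-type isoform linked to neuronal survival, was at 8.84, 8.82, 9.00 and 8.69 scaled TPM in control saline and at 11.2, 11.3, 10.7 and 11.8 in labelled control cocaine. Every cocaine library was above every saline library. The log2 fold change was 0.33 ± 0.04 (SE, n = 4 and 4), or 25.8%, with an adjusted p of 0.00012 in limma. Pcdhgc3, the most abundant member, was at 22.7, 21.8, 24.3 and 23.7 in control saline and at 26.5, 27.3, 27.2 and 29.0 in labelled control cocaine, again without overlap. It rose by 0.24 ± 0.05 on the log2 scale, with an adjusted p of 0.00639 in limma. Pcdhgc5 was at 5.93, 5.77, 6.46 and 6.31 against 9.31, 6.65, 8.29 and 9.57, and the groups did not overlap, although cocaine library 2 stood close to the saline libraries. Its log2 fold change was 0.42 ± 0.11 with an adjusted p of 0.0162 in limma, and 0.0505 without labelled control cocaine 4. In the labelled cKO libraries Pcdhgc5 had -0.24, and in the mean over both labels it had 0.09 and did not pass. With the labels in doubt, a cocaine difference and a genotype difference cannot be told apart for this gene.

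The 3 gamma C-type genes were also the only members without overlap in the upward direction, where 14.1% of all genes stood. The share of all genes without overlap downward was 11.1%, against 3 members. The C-type genes of the alpha cluster had smaller differences. Pcdhac2 was at 8.31, 9.06, 8.86 and 8.56 in control saline and at 9.58, 8.96, 9.39 and 11.6 in labelled control cocaine, with overlapping groups. Its log2 fold change was 0.17 (95% interval 0.00 to 0.33, adjusted p in limma 0.125). Pcdhac1 had -0.05, with an interval from -0.21 to 0.11.

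**Figure D2:**
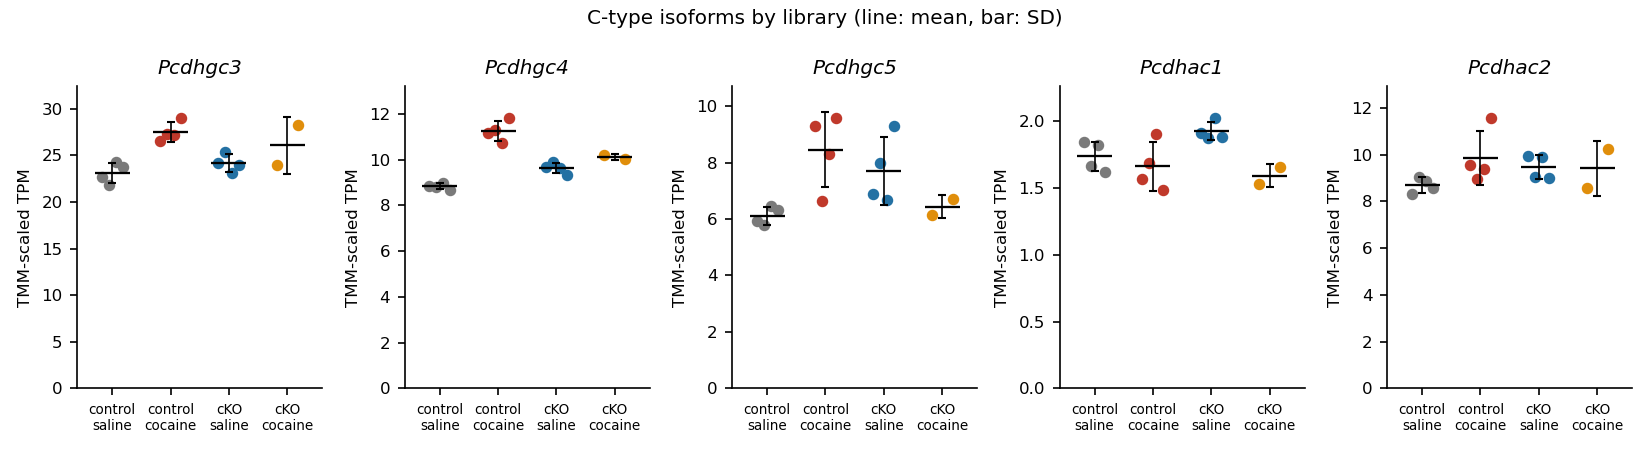
Scaled TPM of the 5 C-type genes, a panel for each gene, by labelled group with a point for each library, a line for the group mean and a bar for the SD. In Pcdhgc3, Pcdhgc4 and Pcdhgc5 all 4 labelled control cocaine libraries lie above the 4 control saline libraries, a direction that turns for Pcdhgc3 and Pcdhgc4 in unscaled TPM, while these groups overlap for Pcdhac1 and Pcdhac2, and both labelled cKO cocaine libraries of Pcdhac1 lie below the 4 cKO saline libraries.

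The direction of these differences depends on scaling between libraries. The TMM factors were 0.807 to 0.939 in cocaine libraries and 1.07 to 1.22 in saline libraries, so they moved fully with treatment. In TPM as deposited, the median of all genes was at -0.34 on the log2 scale for labelled control cocaine against saline, Pcdhgc4 at -0.02 and Pcdhgc3 at -0.12. Both lay above that median, as under TMM. When trends with transcript length and with G and C content were removed from the values of each library, Pcdhgc4 kept 0.24 (adjusted p in limma 0.000754) and Pcdhgc3 0.15 (0.0469), while Pcdhgc5 had 0.34 (0.0515). The part of base composition in the difference was not tested further.

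The other gamma genes that rose were Pcdhga3 and Pcdhga12. Pcdhga3 was at 3.38, 3.65, 4.11 and 3.40 in control saline and at 4.75, 4.48, 3.85 and 4.72 in labelled control cocaine, so 1 cocaine library overlapped the saline range. The log2 fold change was 0.26 ± 0.08 with an adjusted p of 0.0301 in limma. Pcdhga12 had 0.18 ± 0.06 with an adjusted p of 0.0369. Both turned negative in TPM as deposited, at -0.07 and -0.15, against the all-gene median of -0.34. Without labelled control cocaine 4, Pcdhga3, Pcdhga12 and Pcdhgc5 missed the threshold, so that 2 members rose in place of 5. Without labelled control cocaine 1, control saline 2 or control saline 4, 3 members rose, in each case Pcdhgc3, Pcdhgc4 and Pcdhgc5. Without control saline 1, the library with the choroid plexus markers, Pcdhga12 and the 3 gamma C-type genes rose and Pcdhb19 fell. In the alpha cluster Pcdha9 fell, from 2.60, 2.30, 2.43 and 2.47 to 2.37, 1.64, 1.71 and 2.03, where the first cocaine library lay inside the saline range. Its log2 fold change was -0.29 ± 0.09 (adjusted p in limma 0.0338). Pcdhb19 of the beta cluster was at 2.00, 2.24, 2.38 and 2.23 in control saline and at 1.80, 1.82, 1.58 and 1.79 in labelled control cocaine, without overlap. It fell by 0.27 ± 0.08 on the log2 scale, with an adjusted p of 0.025 in limma. Both falls missed the threshold without labelled control cocaine 3, control saline 3 or control saline 4. Pcdha9 missed it also without control saline 1 or labelled control cocaine 2, and Pcdhb19 without control saline 2. Without labelled control cocaine 1 there were 3 falls, with Pcdhb18 added.

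As groups, the clusters stood near the level of all genes. The median log2 fold change was -0.04 in the alpha, -0.04 in the beta and -0.05 in the gamma cluster, beside 0.00 over all genes tested. Within the gamma cluster it was 0.33 for C-type, -0.06 for A-type and -0.08 for B-type genes. Of the 22 gamma genes 13 were below 0, with Pcdhgb8 lowest at -0.32 (adjusted p in limma 0.0881).

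**Figure D3:**
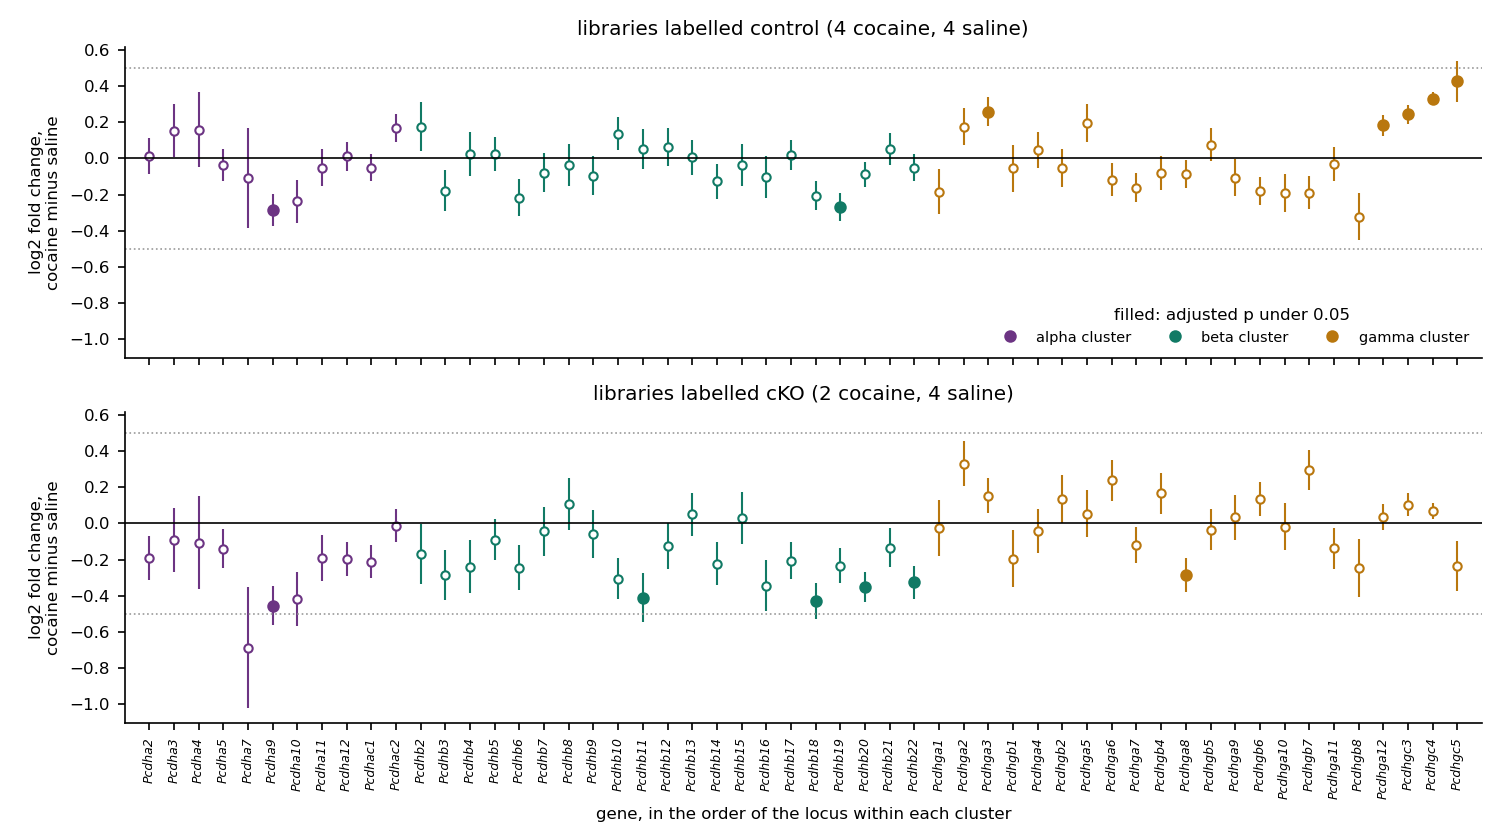
Log2 fold change of cocaine against saline for the members tested, on the log2(value + 0.5) scale after TMM scaling, by gene in the order of the locus, for the labelled control (top) and the labelled cKO (bottom) libraries, with bars for the SE, filled points for an adjusted p under 0.05 and dotted lines at the minimum fold of 0.5. The gamma C-type genes are filled and above 0 in the labelled control libraries (0.24 to 0.42, with the sign turned for Pcdhgc3 and Pcdhgc4 without scaling), and all 11 alpha genes lie below 0 in the labelled cKO comparison.

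In the libraries labelled cKO, cocaine was compared with saline in 2 and 4 libraries. Of the members, 1 alpha, 4 beta and 1 gamma gene fell at an adjusted p under 0.05 in limma and none rose. All 11 alpha genes tested and 18 of 21 beta genes had negative fold changes, with medians of -0.19 and -0.22, beside 0.03 for the gamma cluster and 0.01 for all genes. No member was called with the minimum fold, against 3.14% of all genes. The 6 of 54 that fell and 0 that rose at an adjusted p alone stand against 9.96% lower and 10.2% higher among all genes, and 13 members had an unadjusted p under 0.05. In 12 of the 21 beta genes, 3 alpha genes and 4 gamma genes both cocaine libraries lay below all saline libraries, against 21.1% of all genes, and in 5 gamma genes both lay above, against 22.6%.

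Pcdha9 was at 2.75, 2.51, 2.97 and 2.75 scaled TPM in cKO saline and at 1.92 and 1.80 in labelled cKO cocaine, well apart. It fell by 0.46 ± 0.11 on the log2 scale (SE, n = 2 and 4), with an adjusted p of 0.0119 in limma. Pcdhb18 was at 2.39, 2.51, 2.25 and 2.33 against 1.78 and 1.48, also without overlap. The log2 fold change was -0.43 ± 0.10, with an adjusted p of 0.0094 in limma. Pcdhb20 was at 3.46, 3.28, 3.08 and 3.62 against 2.50 and 2.55, and fell by 0.35 ± 0.08 (adjusted p in limma 0.011). Pcdhb22 was at 2.99, 3.42, 3.16 and 3.13 against 2.69 and 2.19, with the first cocaine library near the lowest saline library. It fell by 0.33 ± 0.09 (adjusted p in limma 0.0236). Pcdhb11 and Pcdhga8 passed narrowly, at -0.41 (0.0482) and -0.28 (0.0475).

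These falls rest on 2 cocaine libraries. Without labelled cKO cocaine 2 none of the 6 passed. Without library 1, Pcdha9, Pcdhb18, Pcdhb22 and Pcdhga8 passed, Pcdhb11 and Pcdhb20 did not, and Pcdha7 passed in addition. Without cKO saline 2 the count was 3, with Pcdha9, Pcdhb18 and Pcdhb20. With the genotype taken from the characteristic in place of the title, Pcdha9 and Pcdhb18 were the members that passed. With trends in length and base composition removed, Pcdha9 and Pcdhga8 passed, and the beta median went from -0.22 to -0.14 and the gamma median from 0.03 to -0.06. Length and base composition were removed together, and their separate parts were not tested.

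The gamma C-type genes had smaller differences in this comparison. Pcdhgc4 was at 9.66, 9.90, 9.63 and 9.34 in cKO saline and at 10.2 and 10.01 in labelled cKO cocaine, a log2 fold change of 0.07 with a 95% interval from -0.03 to 0.16. Pcdhgc3 was at 24.2, 25.4, 23.1 and 24.0 against 23.9 and 28.2, and had 0.10 with an interval from -0.04 to 0.25. Pcdhgc5 was at 6.88, 7.99, 6.69 and 9.31 against 6.14 and 6.72, and had -0.24 with an interval from -0.53 to 0.06. Of the alpha C-type genes, Pcdhac1 was at 1.91, 1.88, 2.02 and 1.88 in cKO saline and at 1.53 and 1.65 in labelled cKO cocaine, without overlap, a log2 fold change of -0.21 (interval -0.41 to -0.02, adjusted p in limma 0.118). Pcdhac2 had -0.01, with an interval from -0.21 to 0.19. The widest difference in the alpha cluster belonged to Pcdha7, at -0.69 ± 0.34 (adjusted p in limma 0.17). Pcdhga2 had the highest gamma value, 0.33 (0.0806).

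**Figure D4:**
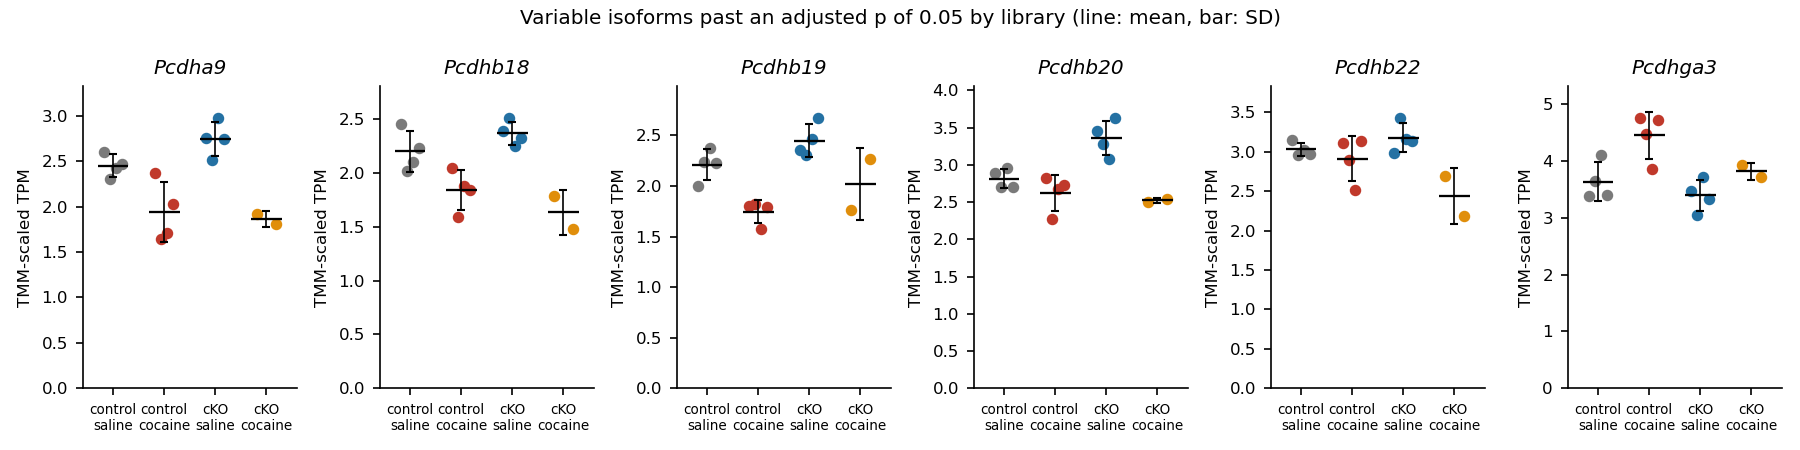
Scaled TPM by labelled group for Pcdha9, Pcdhb18, Pcdhb19, Pcdhb20, Pcdhb22 and Pcdhga3, with a point for each library, a line for the group mean and a bar for the SD. Both labelled cKO cocaine libraries lie below the 4 cKO saline libraries for Pcdha9, Pcdhb18, Pcdhb20 and Pcdhb22, and the labelled control groups overlap for these genes.

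Averaged over both labels, cocaine against saline gave 4 members higher and 9 lower at an adjusted p under 0.05 in limma, where 17.8% of all genes were higher and 15.3% lower. None was called with the minimum fold, against 2.07% of all genes, and 19 members had an unadjusted p under 0.05. All 4 higher members were gamma genes. Pcdhgc4 had 0.20 ± 0.03 (SE, n = 6 and 8, adjusted p in limma 0.000233), Pcdhgc3 0.17 ± 0.04 (0.00758), Pcdhga2 0.25 ± 0.08 (0.0289) and Pcdhga3 0.21 ± 0.06 (0.0219). In TPM as deposited these 4 turned to -0.17, -0.20, -0.07 and -0.13.

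Of the 9 lower members 2 were alpha, 5 beta and 2 gamma genes. Pcdha9 fell by 0.37 ± 0.07 (adjusted p in limma 0.0016) and Pcdha10 by 0.33 ± 0.10 (0.0187). In the beta cluster Pcdhb18 fell by 0.32 ± 0.06 (0.00215), Pcdhb19 by 0.25 (0.00782), Pcdhb6 by 0.23 (0.0412), Pcdhb20 by 0.22 (0.00717) and Pcdhb22 by 0.19 (0.0248). In the gamma cluster Pcdhgb8 fell by 0.28 (0.0481) and Pcdhga8 by 0.18 (0.0311). The filter was on TPM as deposited, which ran higher in saline libraries. A low member such as Pcdhb6 could thus enter the test through the saline libraries, where it was higher, and its fall then leans on the filter. With no filter on low values Pcdhb6 passed in this comparison, and Pcdhgb8, Pcdhga8 and Pcdhga2 did not. The cluster medians were -0.09, -0.09 and 0.03 for alpha, beta and gamma, beside 0.01 over all genes. The 10 libraries whose title and characteristic agree left Pcdhgc3 and Pcdhgc4 higher and Pcdha9, Pcdha10 and Pcdhb18 lower. Without labelled cKO cocaine 1 or 2 the count of higher members went from 4 to 2, and without library 2 that of lower members from 9 to 4. With length and base composition trends removed, Pcdhgc4 was the 1 higher member, with 6 lower.

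Pcdha8 did not pass the filter, and its values had a like pattern. It was at 0.651, 0.799, 0.729 and 0.609 in control saline, 0.422, 0.642, 0.250 and 0.492 in labelled control cocaine, 0.596, 0.767, 0.835 and 0.756 in cKO saline and 0.331 and 0.254 in labelled cKO cocaine. All libraries were below 1 scaled TPM. In a fit with no filter its mean difference over both labels was -0.49, with an adjusted p of 0.00233 in limma.

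Sums over each cluster gave the balance between clusters within a library, which does not depend on scaling between libraries. The gamma sum was 2.31, 2.45, 2.31 and 2.29 times the beta sum in control saline and 2.14, 2.23, 2.18 and 2.17 times in cKO saline. In labelled control cocaine it was 2.58, 2.65, 2.85 and 2.45 times and in labelled cKO cocaine 2.63 and 2.70 times. Every cocaine library was above every saline library, by a small margin between control saline 2 and labelled control cocaine 4. Gamma and beta transcripts differ in G and C content, and the ratio was not corrected for it. With trends in length and base composition removed, the gamma median in labelled control went from -0.05 to -0.14. In labelled cKO the gamma median went from 0.03 to -0.06 and the beta median from -0.22 to -0.14. The gamma sum itself ran from 97.0 to 101 scaled TPM in control saline and from 106 to 109 in labelled control cocaine. In cKO saline it ran from 98.3 to 107, and in labelled cKO cocaine it was 104 and 106, inside that range. In TPM as deposited the direction turned, with 104 to 114 in control saline and 85.4 to 95.3 in labelled control cocaine. The beta sum averaged 42.5 ± 1.05 (SD, n = 4), 40.9 ± 2.78, 46.7 ± 1.81 and 39.3 in control saline, labelled control cocaine, cKO saline and labelled cKO cocaine. The alpha sum averaged 28.1, 28.4, 30.2 and 25.7 in the same order.

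Within the gamma cluster the C-type genes took 38.6%, 36.0%, 39.9% and 38.8% of the sum in control saline and 43.9%, 41.5%, 43.8% and 47.0% in labelled control cocaine. These groups did not overlap. The share was 41.5%, 41.5%, 40.1% and 39.8% in cKO saline and 38.9% and 42.5% in labelled cKO cocaine, which overlapped. The B-type share was 19.5% to 20.5% in control saline and 15.8% to 18.1% in labelled control cocaine, also apart, while it was 18.3% to 19.9% in cKO saline and 19.3% and 20.3% in labelled cKO cocaine. The gamma C-type genes had the highest G and C content of the cluster, 54.3% to 55.4%, and the shares were not corrected for it. These sums and shares are descriptions, since the genes summed were chosen with results of these data known.

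**Figure D5:**
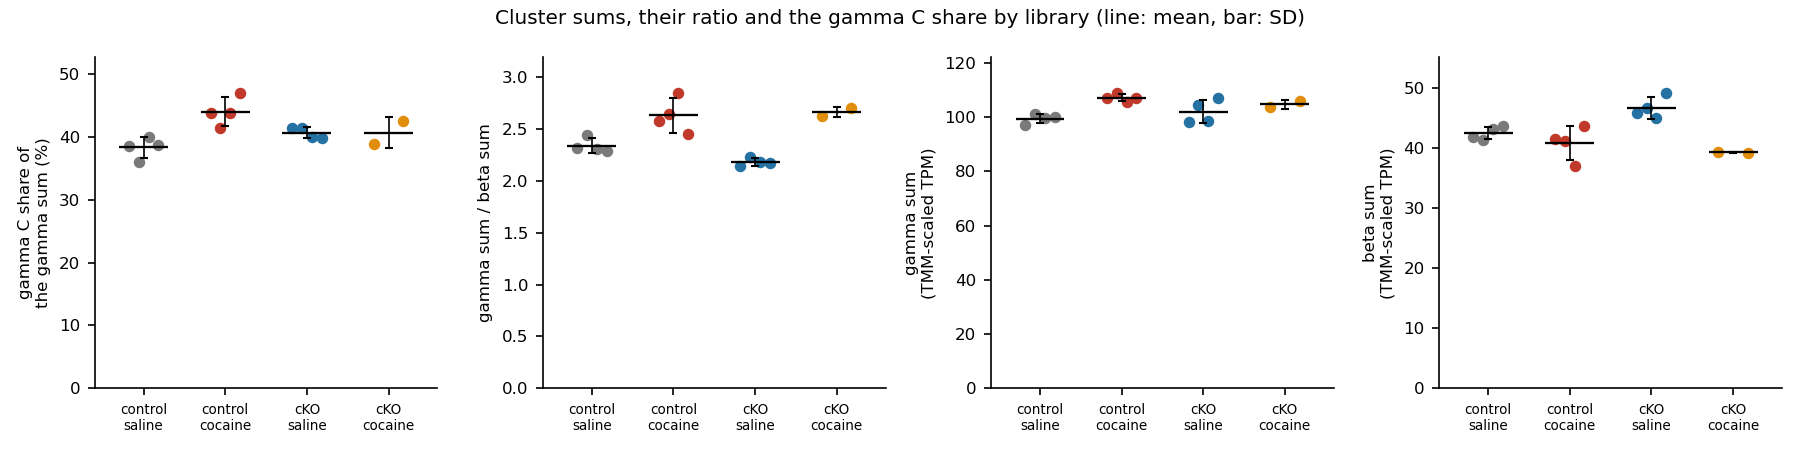
From left to right, the gamma C-type share of the gamma sum in percent, the ratio of the gamma to the beta sum, and the gamma and beta sums in scaled TPM, by labelled group, with a point for each library, a line for the group mean and a bar for the SD. The C-type share lies between 36.0% and 39.9% in control saline and between 41.5% and 47.0% in labelled control cocaine.

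Between the labelled genotypes no member passed in either treatment. Under saline, cKO against control gave 0 of 54 members at an adjusted p under 0.05 in limma, against 0.178% of all genes (0.052% with the minimum fold), and 4 members at an unadjusted p under 0.05. Without overlap 5 members were higher in cKO saline, against 6.18% of all genes, and none was lower, against 6.44%. Of the beta genes 20 of 21 had a positive difference, with a median of 0.09 beside 0.00 for all genes. Pcdhgc4 had 0.12 (95% interval 0.04 to 0.20, adjusted p 0.14) and Pcdhgc5 0.30 (0.06 to 0.55, adjusted p 0.206). Under cocaine, labelled cKO against labelled control again gave 0 of 54 members, against 0.0594% of all genes (0.0371% with the minimum fold), with 9 at an unadjusted p under 0.05. Without overlap 3 members were higher and 2 lower, against 7.86% and 9.59% of all genes. The highest value was 0.38 for Pcdhgb7 (adjusted p in limma 0.253) and the lowest -0.36 for Pcdhgc5 (0.354).

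The cocaine difference itself was compared between the labels by an interaction term. By Maged1, the term set the groups with a high level against those with a low level. Control saline and labelled cKO cocaine had means of 155 and 164 scaled TPM, and cKO saline and labelled control cocaine 71.7 and 73.5. If the genotype labels of the cocaine groups are exchanged, the term is a genotype difference over both treatments, not a difference in the effect of cocaine. Pcdhgc4 was the 1 member to pass, at -0.26 ± 0.06 with an adjusted p of 0.0479 in limma, so its cocaine difference was smaller in the labelled cKO than in the labelled control libraries. Among all genes 1.28% passed in either direction, and 0.802% with the minimum fold, which no member reached. This call lies at the threshold. It was lost in 12 of the 14 fits that left out 1 library, all but those without labelled control cocaine 1 or 3, where over the 14 fits adjusted p ran from 0.0443 to 0.139, and the estimate was -0.13 with the genotype from the characteristic. Pcdhgc5 had -0.66 ± 0.18 (adjusted p in limma 0.0817) and Pcdhgc3 -0.14 (0.417). In all, 9 members had an unadjusted p under 0.05, and the medians were -0.18, -0.19 and -0.02 for alpha, beta and gamma, beside -0.01 for all genes.

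Members varied little together from library to library. After group means were taken out, the median correlation between pairs of genes was 0.04 in the alpha, 0.07 in the beta and 0.07 in the gamma cluster, over 55, 210 and 231 pairs and 14 libraries that share the same scaling. The median residual SD on the log2 scale was 0.126, 0.135 and 0.136 in the same order. Pcdhgc4 had the smallest residual SD of all 54 members, 0.0369, and Pcdha7 the largest, 0.426.

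Genes known to act on the clusters were read from a list of 23, of which 22 were tested. In labelled control cocaine 7 rose and 3 fell at an adjusted p under 0.05 in limma, beside 14.2% and 10.2% of all genes. Smc1a, a core subunit of cohesin, was at 10.3, 11.3, 10.2 and 10.3 scaled TPM in control saline and at 13.2, 15.0, 16.0 and 15.0 in labelled control cocaine, without overlap, a log2 fold change of 0.47 (adjusted p 0.000188). Smc3, its partner in the cohesin ring, had 0.23, and Ctcf, the factor that binds the isoform promoters, 0.19 (0.00968). In TPM as deposited the median of all genes was at -0.34 in this comparison. The rises of Smc3 and Ctcf were smaller than that shift, so their direction depends on the scaling. Counts of rises and falls in this list and those below rest on the same scaling. Of the genes that fell, Pds5b, a cohesin regulator, had -0.25, Stag1, a cohesin subunit, -0.20, and Smchd1, a silencer of the clusters, -0.16. In labelled cKO cocaine 5 rose and 4 fell, beside 10.2% and 9.96% of all genes, with Smc1a at 0.44 (adjusted p in limma 0.00128), Wapl, which releases cohesin from chromatin, at -0.32, and Stag1 at -0.20. In the mean over both labels 8 rose and 6 fell, beside 17.8% and 15.3% of all genes. Between the labelled genotypes none passed under saline or under cocaine.

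Non-clustered protocadherins, which lie elsewhere in the genome, were 12 in the list and 11 tested. In labelled control cocaine 2 rose and 1 fell, beside 14.2% and 10.2% of all genes, and in labelled cKO cocaine 0 rose and 3 fell, beside 10.2% and 9.96%. In labelled control cocaine Pcdh1 rose by 0.30 (adjusted p in limma 0.0215) and Pcdh9 by 0.15 (0.0183), while Pcdh19 fell by 0.34 (0.00123). The 3 that fell in labelled cKO cocaine were Pcdh11x at -0.47, Pcdh7 at -0.41 and Pcdh9 at -0.33. Pcdh1 turned to -0.06 in TPM as deposited, where the median of all genes was at -0.34. The rise of Pcdh9 was smaller than that shift. Among 21 genes for partners of the family in adhesion and signalling, 4 rose and 0 fell in labelled control cocaine, and 0 rose and 4 fell in labelled cKO cocaine, beside the same shares of all genes. The kinase gene Ptk2b was the 1 called with the minimum fold, at 0.64 (adjusted p in limma 0.0211), and Fyn, a kinase of the Src family, had 0.35. Nlgn1, a postsynaptic neuroligin, had -0.46 in labelled cKO cocaine, and Nckap1, a subunit of the WAVE complex, -0.27.

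Protein-coding genes that flank the clusters on chromosome 18 were measured in the same libraries. Of 23 neighbours tested 8 rose and 2 fell in labelled control cocaine, and 4 rose and 3 fell in labelled cKO cocaine, at an adjusted p under 0.05 in limma, again beside 14.2% and 10.2%, and 10.2% and 9.96%, of all genes. Of the clustered protocadherins in between, 7 of 54 passed in labelled control cocaine, beside 24.4% of all genes, and 6 of 54 in labelled cKO cocaine, beside 20.2%.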

How the data were processed

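RNA-seq libraries of thalamus were rRNA-depleted and stranded. Per the labels and the study's methods, the authors aligned reads with STAR 2.5.3a to GRCm38.p4 (mm10), quantified transcripts with Salmon and summarised them per gene. Tables of TPM per gene, deposited by the authors, were analysed for 14 of 15 samples. In 2 deposited tables the TPM values were written with decimal commas, which were read as points. The methods give a nominal read depth, but TPM holds no counts, so no counting error was computed. Groups followed the sample titles.

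Values were scaled by unweighted TMM (trims of 30% and 5%), and log2(scaled TPM + 0.5) was fitted with limma 3.58.1 (R 4.3.3, intensity trend, 1 mean per group, Benjamini-Hochberg adjustment) for the 13471 genes that reached 1 TPM in 3 or more libraries. Python 3.11.15 served for the rest. A call needed an adjusted p under 0.05 and a log2 fold change of at least 0.5. The rule for naming took Maged1, the C-type genes, called members, the 4 highest by level in each cluster, the highest and lowest fold change of each cluster and comparison, called and extreme genes of the lists, and the members at the filter's border. Genes past an adjusted p of 0.05 alone, Pcdha8, Pcdha6 and Pcdhb1 were named after their values were seen. On simulated data for the labelled control comparison, 191 of 200 genes changed by 1 log2 unit were recovered with 3 false calls among 13283 genes. The simulated noise was independent between genes and libraries, and the change was larger than that of any member tested there. Recovery of smaller changes, or of changes in the labelled cKO groups, was not simulated. The members and gene lists were chosen with earlier results of these data known. Replicate numbers name different animals, and p-values weigh a difference against the spread between these libraries, pooled over the 4 groups. Alternatives covered scaling, pseudocount, filter, labels, trends in length and base composition, the replicate block and each library left out. No sequence is shown.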

Additional observations from a re-analysis of the deposited data

Results flagged for a closer look

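Among 99 groups of 4 libraries examined, 6 held a library whose gap to the nearest other passed Dixon's 95% critical value for 4 values, or 6.06% of groups, where chance gives about 1 in 20. Of the libraries labelled control cocaine, library 1 had the lowest Pcdha1 (0.350 scaled TPM, the others 0.797 to 0.879), library 3 the lowest Pcdhb19 (1.58, the others 1.79 to 1.82) and library 4 the lowest Pcdhb4 (0.624, the others 1.096 to 1.149). Of the cKO saline libraries, library 3 had the lowest Pcdha1 (0.486, the others 0.670 to 0.706), library 4 the lowest Pcdha7 (1.06, the others 1.87 to 1.92) and the highest Pcdhb9 (4.24, the others 3.30 to 3.44). Pcdhb19 was among the genes that fell in labelled control cocaine.

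The cocaine difference differed between the labels, by the interaction term in limma, for Pcdhgc4 (-0.26 ± 0.06, adjusted p 0.0479), for the non-clustered Pcdh9 (-0.49 ± 0.07, adjusted p 0.00686) and for Maged1 (2.28 ± 0.16, adjusted p 5.53e-05). The sign for Maged1 follows its levels in the labelled groups, which go against the labels of the cocaine libraries. If those labels are exchanged, the term is a genotype difference for each of these genes.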

How the results depend on the processing

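With TPM as deposited the median of all genes moved by -0.34 (labelled control) and -0.35 (labelled cKO), and calls with the minimum fold became 8, 20 and 10 lower members in the labelled control, labelled cKO and mean comparison. At an adjusted p under 0.05 alone they were 34, 39 and 49 lower, with 0 higher in the labelled control and mean comparisons. Alpha, beta and gamma medians became -0.33, -0.33 and -0.36 in labelled control and -0.49, -0.51 and -0.30 in labelled cKO, and log2 ratios of the sums -0.36, -0.43, -0.26 and -0.62, -0.64, -0.35. The beta median under saline became 0.14. In labelled control, Pcdhgc3 turned to -0.12, Pcdhgc4 to -0.024, Pcdhga12 to -0.15, Pcdhga3 to -0.072 and Pcdh1 to -0.060. In the mean comparison Pcdhgc3 turned to -0.20, Pcdhgc4 to -0.17, Pcdhga3 to -0.13 and Pcdhga2 to -0.069. With quantile scaling the labelled control medians were 0.042, 0.037 and 0.0044, its alpha and beta sums 0.091 and 0.038, and its lower members 0. The beta median was then 0.16 under saline and -0.079 under cocaine, and the interaction medians -0.27, -0.26 and -0.088.

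With trends in length and base composition removed, 2 members were higher in labelled control, 2 lower in labelled cKO and 1 higher in the mean comparison. The gamma median was -0.14 in labelled control, and beta and gamma -0.14 and -0.060 in labelled cKO, with -0.12 for beta in the interaction. Same-numbered libraries did not deviate together (mean correlation -0.014 over 18 pairs, 0.0046 over 54 others), which gave no sign of pairing by number. Whether they share a litter, a day or a batch was not tested. The replicate block gave 1 higher member in labelled cKO, and the Pcdhgc4 interaction missed the threshold. The block with the trends removed gave 1 higher and 1 lower member in labelled control, 0 lower in labelled cKO, and 0 higher and 4 lower in the mean comparison, with medians of -0.14 for gamma in labelled control, -0.12 and -0.077 for beta and gamma in labelled cKO and -0.10 for beta in the interaction.

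With the 10 libraries whose labels agree, counts were 2 higher and 0 lower in labelled control, 0 lower in labelled cKO, and 2 higher and 3 lower in the mean comparison, with alpha medians of 0.15 under saline and -0.25 in the interaction. With the genotype from the characteristic, 3 members were higher in labelled control and 2 lower in labelled cKO, beta medians were -0.17 in labelled cKO and -0.071 in the interaction, and Pcdh9 under saline turned from 0.38 to -0.018. Fitting only the groups compared gave 3 higher and 1 lower in labelled control, as did no filter on low values, which also called 1 lower member in labelled cKO. A pseudocount of 0.1 called 3 there. With no minimum fold the calls were 5 higher and 2 lower in labelled control, 6 lower in labelled cKO and 1 in the interaction. A filter at a mean of 5 TPM left no beta member, so it gave no beta value. It left 3 higher and 0 lower in labelled control, 0 lower in labelled cKO, and 2 higher and 0 lower in the mean comparison. Alpha and gamma medians were then 0.17 and 0.29 in labelled control and -0.013 and 0.086 in labelled cKO, and gamma 0.090 under saline, -0.11 under cocaine and -0.20 in the interaction. The cause of these moves was not tested, other than that fewer genes or libraries enter some of these fits.

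Leaving out each library in turn, called members were 0 to 1 higher in labelled control, 0 to 2 lower in labelled cKO, and 0 to 1 lower in the interaction and the mean comparison. At an adjusted p alone, labelled control gave 2 to 5 higher and 0 to 3 lower, labelled cKO 0 to 1 higher and 0 to 6 lower, and the mean comparison 2 to 5 higher and 4 to 9 lower. Medians ran from -0.11 to -0.020 for gamma in labelled control, from -0.19 to -0.044 for alpha and from -0.10 to -0.016 for beta under cocaine, and from -0.22 to -0.11 for beta in the interaction. Where 1 labelled cKO cocaine library remained, it was taken to vary like the other groups. Over all alternatives, counts, medians and sums stayed near the value reported in 949 cases and moved in 107. Single-gene values stayed as reported in 2491 cases, dropped below the threshold in 220, passed it in 16, turned in 10 and moved in level in 61. For genes past the threshold as reported, staying means the same direction and side. For the other genes it means a shift smaller than their residual SD, whatever the sign. A turn in direction was counted only for genes past the threshold as reported. TPM tables hold no count per library, so what depth limits could not be measured.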
